A study of Mus musculus with 16 samples.

Results

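The genes described here are the secreted Wnt antagonists Dkk1, Dkk2, Dkk3, Sost, Wif1, Sfrp1, Sfrp2, Sfrp4, Sfrp5 and Frzb, read on the arrays of mouse footpads, tissue that holds skin, muscle, tendon, bone and joint. They were chosen by name. A member was any probe set whose annotation gives 1 of these symbols alone, and all 10 genes had exactly 1 such probe set among the 19938 genes tested. Footpad RNA was measured with 16 arrays (Affymetrix Mouse Gene 1.0 ST), 4 per group, each from 2 females and 2 males. The groups were AIRmax pristane (day 160), AIRmax control (day 0), AIRmin pristane (day 160) and AIRmin control (day 0). AIRmax and AIRmin are outbred stocks bred from several inbred strains by selection for a strong or a weak acute inflammatory reaction. Pristane, a mineral oil that induces arthritis, was given into the peritoneum as 2 injections of 0.5 ml set 60 days apart, so the footpad itself was not injected. The sources do not say whether control mice received any injection, and all mice are labelled as 2 to 4 months old. A mouse sampled at day 160 is older than that, so the label cannot be its age at sampling. Treatment and day cannot be told apart in either line, and age at sampling may differ with them.

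Wnt proteins bind Frizzled receptors and the co-receptors Lrp5 and Lrp6 on the cell surface, and in the canonical branch this keeps beta-catenin from being degraded, so that it reaches the nucleus and acts with TCF/LEF factors on target genes. The antagonists work outside the cell and by different routes. Dkk1, Dkk2 and sclerostin (Sost) bind the Lrp5 and Lrp6 co-receptors, whereas the secreted Frizzled-related proteins (Sfrp1, Sfrp2, Sfrp4, Sfrp5 and Frzb) and Wif1 bind Wnt proteins themselves. In the skeleton Wnt signals drive bone formation, sclerostin is made chiefly by osteocytes, and Frzb is known as a gene of articular cartilage.

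Regulatory sequence is shown for 3 of the 10 genes. Wif1 and Frzb are shown because their pristane arrays lay below the control arrays in both lines, and Dkk1 because its window alone held a TCF/LEF letter match. The RefSeq promoter table (GRCm38.p6) had a window for 7 members, and the 250 bases before the gene start are printed 5′ to 3′ on the strand of the gene. They come from chr10:121033754-121034003 (plus strand), chr2:80447397-80447646 (minus strand) and chr19:30549497-30549746 (minus strand). Capitals mark the TCF/LEF core CTTTGAA, searched on both strands together with CTTTGAT.
Wif1: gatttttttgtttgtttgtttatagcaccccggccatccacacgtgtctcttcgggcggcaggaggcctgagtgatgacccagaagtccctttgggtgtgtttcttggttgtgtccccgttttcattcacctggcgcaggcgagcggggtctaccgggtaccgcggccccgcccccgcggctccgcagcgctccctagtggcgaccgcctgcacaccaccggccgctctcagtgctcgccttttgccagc
Frzb: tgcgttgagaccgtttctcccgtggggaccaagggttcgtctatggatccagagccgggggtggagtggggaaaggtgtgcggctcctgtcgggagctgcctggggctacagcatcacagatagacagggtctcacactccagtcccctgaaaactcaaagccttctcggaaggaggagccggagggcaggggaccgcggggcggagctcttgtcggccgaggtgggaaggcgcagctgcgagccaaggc
Dkk1: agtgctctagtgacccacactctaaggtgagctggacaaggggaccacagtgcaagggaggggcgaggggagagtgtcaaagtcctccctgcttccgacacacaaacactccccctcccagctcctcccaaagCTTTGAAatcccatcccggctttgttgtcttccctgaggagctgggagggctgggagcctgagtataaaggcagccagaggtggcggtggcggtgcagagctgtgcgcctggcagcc
The Dkk1 match began 117 bases before the gene start. Neither motif was found in these windows of Wif1, Frzb, Sost, Sfrp5, Dkk2 or Sfrp2, of which the Dkk2 and Sfrp2 windows overlap the annotated span of their own gene. Over all 32851 promoter windows of this length, 4.46% held CTTTGAA, 3.21% held CTTTGAT and 7.48% held either. The 1 match is a description of letters only.

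The deposited values are log2 signals, in which a difference of 1 is a doubling. They carry no detection call, so the level of 1027 olfactory receptor genes, which footpad is not known to use, served as background. All 10 antagonists had group means above the 95th percentile of these genes, which was 4.37 to 4.53 over the 4 groups, and the lowest member mean was 5.11 for Frzb in AIRmax pristane footpads. Groups were compared with limma over all 19938 genes, with p adjusted by Benjamini-Hochberg and a threshold of 0.05. Array medians lay between 5.44 and 5.53, and Xist separated the labelled sexes on 16 of 16 arrays. Marker genes of the expected tissues were above background in all 4 groups, among them 12 of 12 measured for skeletal muscle, 7 of 7 for keratinocytes, 5 of 5 for tendon, 7 of 8 for chondrocytes (Matn3 was not) and 6 of 6 for osteocytes.

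**Figure D1:**
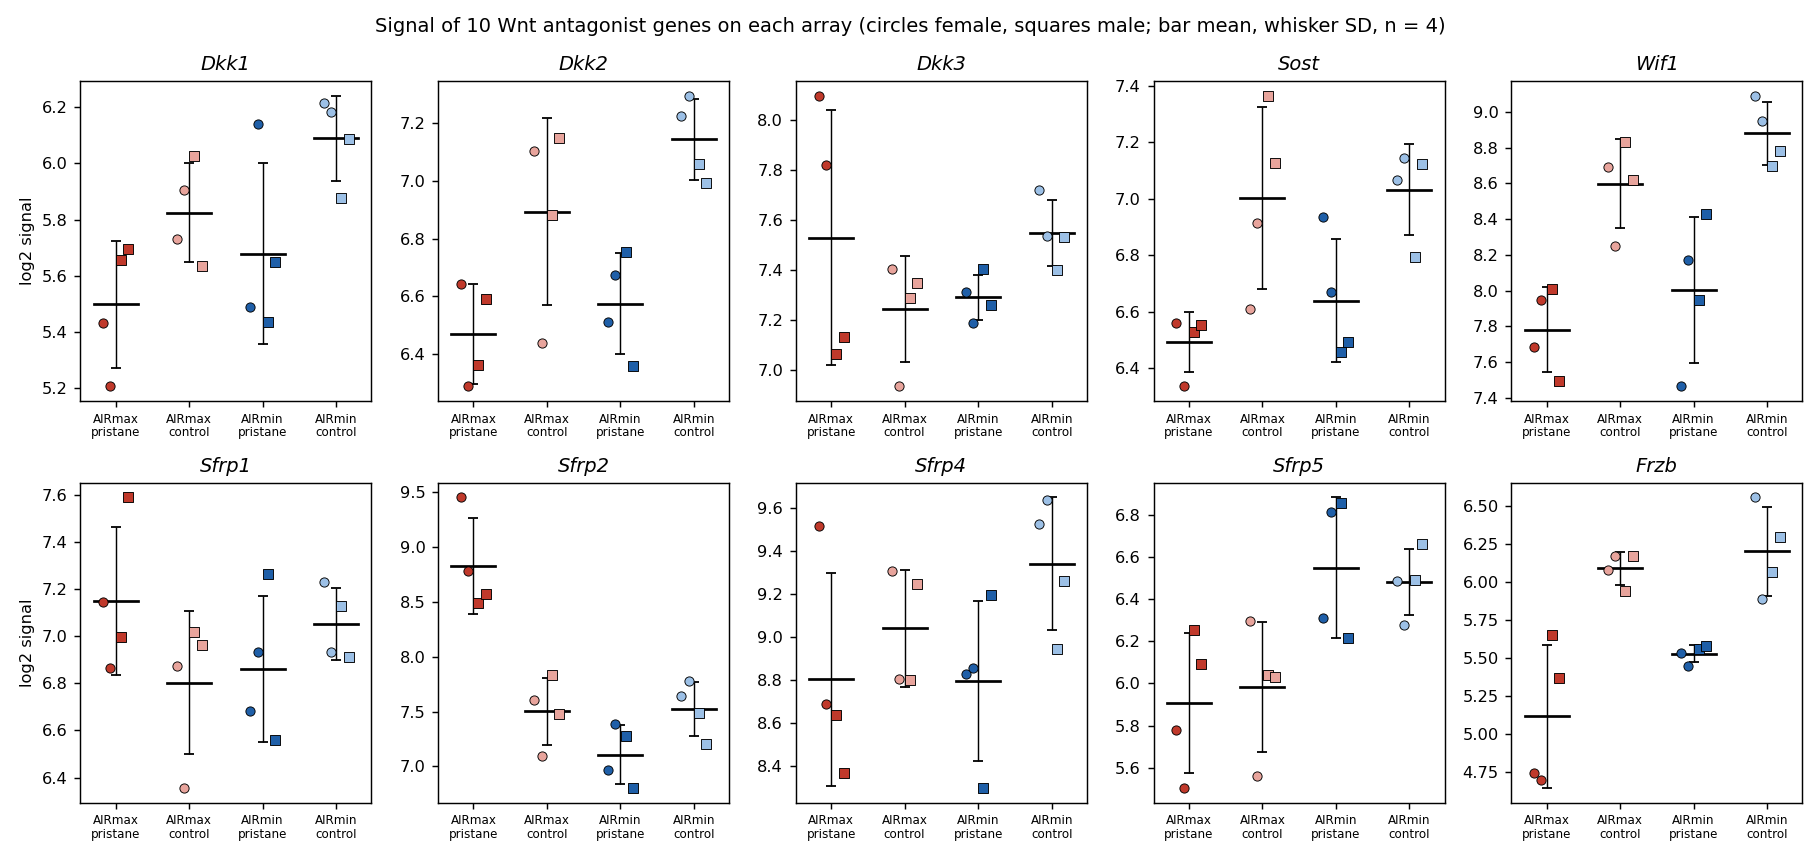
Log2 signal of each antagonist (vertical axis, its own scale in each panel) on the 16 arrays by group (horizontal axis), with circles for females, squares for males, bars for group means and whiskers for SD (n = 4). Sfrp2 lies at 8.49 or more on all AIRmax pristane arrays and at 7.83 or less on all others, while Wif1 and Frzb are lower on every pristane array than on any control array of the same line.

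The plainest pattern was that of Sfrp2, a secreted Frizzled-related protein of fibroblasts. Its log2 signal was 8.49, 8.57, 9.45 and 8.78 in AIRmax pristane footpads, against 7.83, 7.47, 7.61 and 7.10 in AIRmax control footpads. In AIRmin pristane footpads it was 7.28, 6.80, 6.97 and 7.38, against 7.48, 7.20, 7.64 and 7.78 in AIRmin control footpads. The 4 AIRmax pristane arrays stood above the other 12, and the other 3 groups overlapped with one another.
Between the pristane footpads of the lines Sfrp2 differed by 1.71 on the log2 scale (standard error 0.22, adjusted p = 0.0166 from limma), a 3.28-fold higher signal in AIRmax (8.82 ± 0.44) than in AIRmin (7.11 ± 0.27, mean ± SD, n = 4). It was the only antagonist called in this comparison, in which 1.36% of all genes passed and 5.04% had AIRmax arrays wholly above AIRmin arrays and 5.81% wholly below. At an unadjusted p under 0.05 (18.8% of all genes) Sfrp2 was higher and Sfrp5 lower. The pristane response in AIRmax exceeded that in AIRmin by 1.74 (standard error 0.30, adjusted p = 0.0238 from limma on all 16 arrays), again for Sfrp2 alone among the 10, with 0.171% of all genes called and 8.21% at an unadjusted p under 0.05. In control footpads the lines differed by -0.02 (95% interval -0.41 to 0.36). The response within each line did not pass when fitted on the arrays of that line alone. It was 1.32 in AIRmax (standard error 0.23, adjusted p = 0.0624 from limma, groups without overlap) and -0.42 in AIRmin (standard error 0.16, adjusted p = 0.325). With all 16 arrays in 1 fit the AIRmax response was called, so this outcome depends on the fit. These comparisons share arrays and are not independent of one another.
With 1 array fewer the sizes moved little but the calls did not all hold. The difference between pristane footpads lost its call without AIRmin pristane array 117 (1.77, adjusted p = 0.0664 from limma), 119 (1.67, 0.0553) or 120 (1.81, 0.0542), and the difference in response lost it without 106, 112, 115, 116, 117 or 119 (sizes from 1.65 to 1.79, adjusted p from 0.0536 to 0.0676).

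Marker levels of other tissues differed between the groups. The summed level is given here as the mean log2 signal of a marker list on an array. The 9 fibroblast markers ranged from 9.85 to 10.21 in AIRmax pristane and from 9.78 to 10.21 in AIRmax control footpads, and from 9.14 to 9.74 in AIRmin pristane and from 10.10 to 10.30 in AIRmin control footpads. Of these 9, 2 were called higher in AIRmax pristane than in AIRmin pristane footpads, where 1.36% of all genes were called in either direction. Col3a1 was among them (11.76 ± 0.31 against 10.02 ± 0.38, SD, n = 4). By mean, 7 of the 9 were higher there and 2 lower, namely Cd55 (7.03 against 7.31) and Dcn (12.38 against 12.39). Relative to that list on the same array, a measure chosen after its values were seen, Sfrp2 was 1.35 higher in AIRmax pristane than in AIRmax control footpads and 1.16 higher in AIRmax pristane than in AIRmin pristane footpads (exact permutation test, two-sided, p = 0.0286 for each, the smallest that 4 against 4 arrays allow, and 0.114 adjusted over 16 such comparisons). In AIRmin the like difference between pristane and control footpads was 0.25 (p = 0.286, same exact test). The 7 measured macrophage markers were at 9.44 to 9.90 in AIRmax pristane and 8.71 to 9.04 in AIRmax control footpads, and at 8.02 to 8.64 in AIRmin pristane and 8.73 to 8.95 in AIRmin control footpads. Of these 7, 3 were called higher in AIRmax pristane than in AIRmax control footpads (0.281% of all genes called in either direction). Between AIRmax pristane and AIRmin pristane footpads 4 were called higher in AIRmax (1.36% of all genes). In the AIRmax response 5 had a higher mean and 2 a lower one. These 2 were Mrc1 (9.01 in pristane against 9.33 in control footpads) and Csf1r (9.78 against 9.79). The 12 skeletal muscle markers lay at 8.17 to 9.82 in the AIRmax pristane group and at 10.09 to 10.53 in the AIRmin pristane group, without overlap, and 1 of them was called lower in AIRmax. Their control ranges, 9.69 to 10.22 in AIRmax and 9.31 to 10.73 in AIRmin, overlapped the pristane range of the same line. The part of these tissues in the Sfrp2 difference was not tested, and in whole footpads fewer cells of a type and less RNA per cell cannot be told apart.

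**Figure D2:**
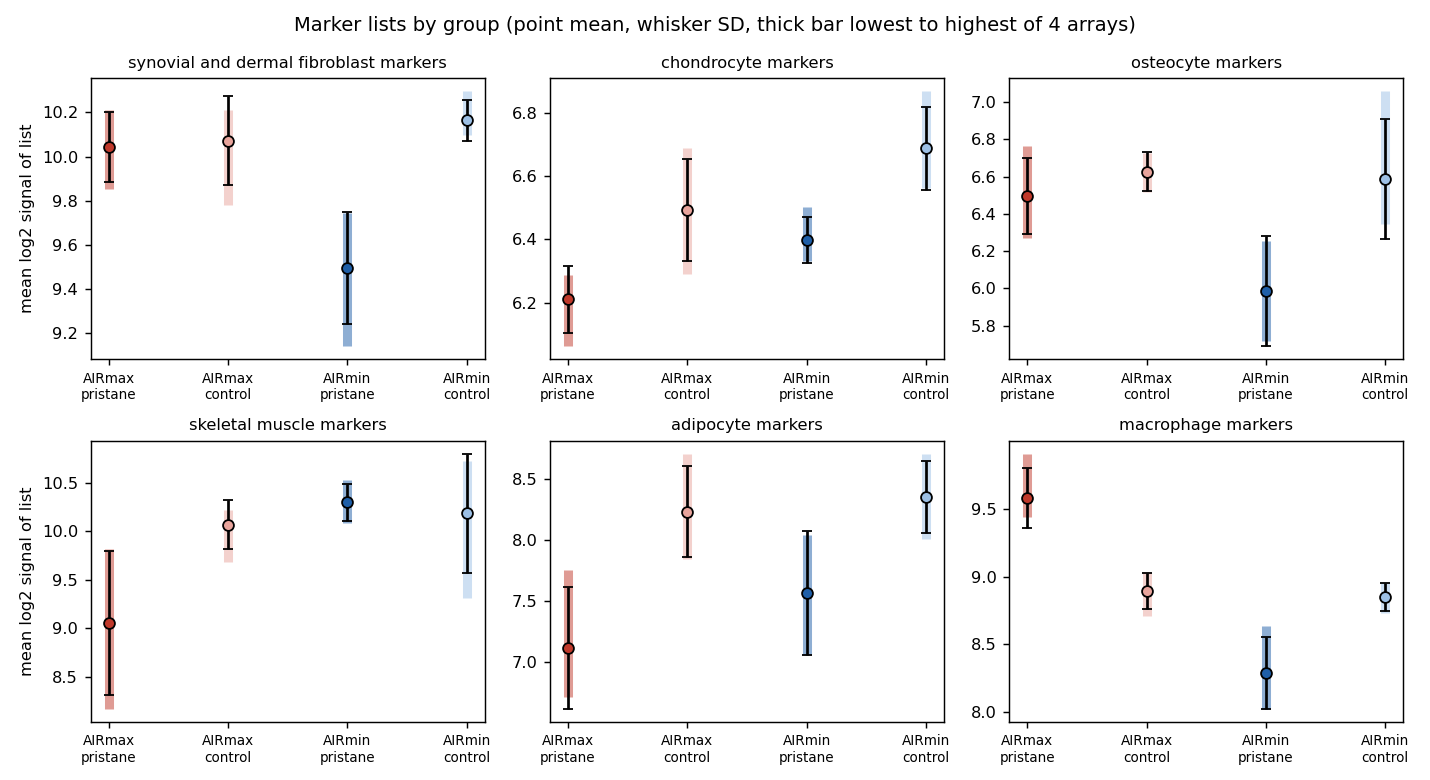
Mean log2 signal of 6 marker lists (vertical axis) in the 4 groups (horizontal axis), with points for group means, whiskers for SD and thick bars from the lowest to the highest of 4 arrays. Fibroblast markers are lowest in AIRmin pristane footpads (at most 9.74), macrophage markers are highest in AIRmax pristane footpads (at least 9.44), and adipocyte markers are lower in the pristane footpads of AIRmax (at most 7.75) than in its controls (at least 7.85).

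Wif1, which binds Wnt proteins through its WIF domain, had the lower signal in the pristane footpads of both lines. Its values were 8.01, 7.49, 7.68 and 7.95 in AIRmax pristane footpads, against 8.83, 8.62, 8.69 and 8.25 in AIRmax control footpads. In AIRmin pristane footpads they were 7.95, 8.43, 7.46 and 8.17, against 8.70, 8.78, 9.09 and 8.95 in AIRmin control footpads. No pristane array reached the lowest control array of its line.
The log2 difference was -0.82 in AIRmax (standard error 0.16, adjusted p = 0.0797 from limma) and -0.88 in AIRmin (standard error 0.19, adjusted p = 0.108). Neither passed alone, and the 2 responses differed by 0.06 (95% interval -0.50 to 0.62). The AIRmax response passed without control array 108 (-0.93, adjusted p = 0.049), and the AIRmin response passed without pristane array 118 (-1.02, adjusted p = 0.0456).

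Frzb, also named secreted Frizzled-related protein 3, behaved alike. Its signal was 5.65, 5.37, 4.74 and 4.69 in AIRmax pristane footpads, against 5.94, 6.17, 6.08 and 6.17 in AIRmax control footpads. In AIRmin pristane footpads it was 5.56, 5.58, 5.53 and 5.45, against 6.06, 6.30, 6.56 and 5.89 in AIRmin control footpads. Pristane and control arrays did not overlap in either line, and the lowest 2 values belonged to the 2 AIRmax pristane females. Those 2 values, 4.74 and 4.69, lay close above the background level of that group (4.45), so the size of the fall there is less certain.
The difference was -0.98 in AIRmax (standard error 0.21, adjusted p = 0.101 from limma) and -0.67 in AIRmin (standard error 0.14, adjusted p = 0.0988). Without AIRmax pristane array 109 the AIRmax value was -1.16 and passed (adjusted p = 0.0416). The AIRmax response was also called with all 16 arrays in 1 fit. The AIRmax and AIRmin responses of Frzb differed by -0.30 (95% interval -0.87 to 0.26). The mean of the 8 chondrocyte markers was also lower, with 6.06 to 6.29 in AIRmax pristane and 6.29 to 6.69 in AIRmax control footpads, and 6.33 to 6.50 in AIRmin pristane and 6.56 to 6.87 in AIRmin control footpads. Of these 8, Chad, a matrix protein of cartilage, was called lower in AIRmax pristane than in AIRmax control footpads, and it carried most of the list's difference there. That difference was -0.28 over the 8 genes and -0.08 over the 7 without Chad, whose ranges overlapped (5.77 to 6.05 in AIRmax pristane and 5.86 to 6.14 in AIRmax control footpads), and in AIRmin it was -0.29 over the 8 and -0.19 over the 7. Relative to the list on the same array Frzb differed by -0.69 on the log2 scale between AIRmax pristane and AIRmax control footpads (exact permutation test, two-sided, p = 0.0286, 0.114 adjusted over 16 comparisons), and the like difference in AIRmin was -0.38 (p = 0.143 by the same exact test). Relative to the 7 genes without Chad, the differences of Frzb were -0.90 in AIRmax and -0.48 in AIRmin, given with no test.

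Among the antagonists that act on Lrp5 and Lrp6, Sost had 6.53, 6.55, 6.56 and 6.34 in AIRmax pristane footpads, against 7.37, 7.13, 6.61 and 6.91 in AIRmax control footpads. In AIRmin pristane footpads it had 6.46, 6.49, 6.93 and 6.67, against 6.79, 7.12, 7.07 and 7.14 in AIRmin control footpads. The groups did not overlap in AIRmax and overlapped on 1 control and 1 pristane array in AIRmin.
The log2 differences of Sost were -0.51 in AIRmax (standard error 0.16, adjusted p = 0.204 from limma) and -0.39 in AIRmin (standard error 0.13, adjusted p = 0.245). Other genes of osteocytes are given beside it. Dmp1 averaged 6.61 ± 0.36 in AIRmax pristane and 7.59 ± 0.12 in AIRmax control footpads (SD, n = 4), and 6.83 ± 0.46 in AIRmin pristane and 7.60 ± 0.69 in AIRmin control footpads. Phex averaged 6.50 ± 0.52 and 7.67 ± 0.21 in AIRmax pristane and control footpads, and 6.14 ± 0.65 and 7.47 ± 0.52 in AIRmin pristane and control footpads. Mepe averaged 4.71 ± 0.12 and 5.21 ± 0.13 in AIRmax pristane and control footpads, and 4.72 ± 0.30 and 5.39 ± 0.36 in AIRmin pristane and control footpads. Dmp1, Phex and Mepe thus had lower means with pristane in both lines, while Fgf23, on the same list, had slightly higher ones, at 5.23 ± 0.20 in AIRmax pristane and 5.14 ± 0.18 in AIRmax control footpads, and at 5.22 ± 0.14 in AIRmin pristane and 5.07 ± 0.07 in AIRmin control footpads. Pdpn, on the same list but also made by fibroblasts and other cells, went the other way in AIRmax, with 9.43 ± 0.49 in pristane and 7.53 ± 0.27 in control footpads. Over the 5 osteocyte genes other than Sost, the list ranged from 6.27 to 6.76 in AIRmax pristane and from 6.52 to 6.73 in AIRmax control footpads, and from 5.72 to 6.25 in AIRmin pristane and from 6.35 to 7.06 in AIRmin control footpads. Relative to those 5 genes on the same array, Sost differed by -0.38 between AIRmax pristane and AIRmax control footpads (exact permutation test, two-sided, p = 0.229), by 0.21 between AIRmin pristane and AIRmin control footpads (p = 0.486, same exact test) and by -0.66 between AIRmax pristane and AIRmin pristane footpads (p = 0.0571, same exact test). None passed, and in AIRmin the sign was opposite to that of Sost itself. The 5 genes include Pdpn, whose higher signal in AIRmax pristane footpads raised the list mean there, while Dmp1, Phex and Mepe were lower. A level relative to the list without Pdpn was not computed. These relative differences, and how they differ between the lines, therefore cannot be read as Sost against osteocyte genes alone.

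Dkk2 had 6.36, 6.59, 6.64 and 6.29 in AIRmax pristane footpads, against 6.88, 7.15, 7.10 and 6.44 in AIRmax control footpads, where array 108 alone fell among the pristane values. In AIRmin pristane footpads it had 6.75, 6.36, 6.51 and 6.67, against 7.06, 6.99, 7.23 and 7.30 in AIRmin control footpads, without overlap. The differences were -0.42 in AIRmax (standard error 0.17, adjusted p = 0.299 from limma) and -0.57 in AIRmin (standard error 0.11, adjusted p = 0.0946).
Dkk1, the founding member of its family, ranged from 5.21 to 5.70 (median 5.54) in AIRmax pristane and from 5.63 to 6.03 (median 5.82) in AIRmax control footpads. In AIRmin it ranged from 5.44 to 6.14 (median 5.57) in pristane and from 5.88 to 6.21 (median 6.13) in control footpads. The groups overlapped in both lines, and the differences of -0.33 in AIRmax and -0.41 in AIRmin did not pass (adjusted p = 0.329 and 0.32 from limma).

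Wif1, Frzb, Sost, Dkk2, Dkk1 and Sfrp4 had lower means with pristane in both lines, which led to a comparison chosen after the values were seen, the mean of the AIRmax and AIRmin responses fitted on all 16 arrays. In it 4 of the 10 antagonists were called lower and 0 higher, where 1.97% of all genes were called lower and 0.562% higher. By sign alone 7 of the 10 were negative and 3 positive. Sfrp2 was among the positive ones and did not pass (0.45, adjusted p = 0.116 from limma). Wif1 fell by 0.85 on the log2 scale (standard error 0.13, adjusted p = 0.00461 from limma), Frzb by 0.83 (0.13, 0.00516), Dkk2 by 0.50 (0.10, 0.0199) and Sost by 0.45 (0.10, 0.0321). Sost lost its call in this comparison without array 105, 106, 110, 112, 114, 115, 116, 117 or 118 (adjusted p from 0.0508 to 0.0736), while Dkk1 (-0.37, adjusted p = 0.0841) gained one without array 120 (-0.45, adjusted p = 0.0221). Sfrp4 did not pass (-0.39, adjusted p = 0.223). Markers of several tissues were called lower in the same fit, namely 5 of 7 measured for adipocytes, 4 of 6 for osteocytes (Dmp1, Mepe, Phex and Sost itself, while Pdpn was called higher), 2 of 9 for fibroblasts (Cd55 and Dcn) and 1 each for chondrocytes (Chad), tendon (Tnmd), osteoblasts (Sp7) and endothelium (Tek). Of the 7 macrophage markers Msr1 was called higher and Mrc1 lower. The part of these tissues in the fall of the 4 antagonists was not tested. Since the same values led to the choice of this fit, its calls add no independent evidence.

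Dkk3, a divergent member of the Dickkopf family that does not act on Lrp5 and Lrp6 as Dkk1 does, had the largest difference between the sexes in the AIRmax response among the 10, seen in a fit by sex that was added after the values were known. Its signal was 8.10 and 7.82 in AIRmax pristane females, against 7.41 and 6.94 in AIRmax control females. In males it was 7.07 and 7.13 in AIRmax pristane footpads, against 7.29 and 7.35 in AIRmax control footpads. The female and male responses, 0.79 and -0.22, thus lay on opposite sides of 0, but with 2 arrays in each cell the difference of 1.01 (standard error 0.23) did not pass (adjusted p = 0.999 from limma, 0 genes called, unadjusted p = 0.00105). Sfrp2 had female and male responses of 1.76 and 0.88 in AIRmax, and Frzb of -1.41 and -0.54, which did not pass as differences between the sexes either (adjusted p = 0.999 for each, same fit). Sfrp4 (0.05 in females and -0.52 in males) and Sfrp5 (-0.29 and 0.14) also had opposite signs in AIRmax, without passing. In AIRmin Dkk3 was at 7.40, 7.26, 7.31 and 7.19 in pristane footpads, against 7.40, 7.53, 7.72 and 7.54 in control footpads, a difference of -0.26 (adjusted p = 0.313).
Sfrp1, which is expressed by fibroblasts and bone cells, ranged from 6.87 to 7.59 in AIRmax pristane and from 6.36 to 7.02 in AIRmax control footpads, and from 6.56 to 7.26 in AIRmin pristane and from 6.91 to 7.23 in AIRmin control footpads. Its differences of 0.35 and -0.19 did not pass (adjusted p = 0.439 and 0.672 from limma), nor did the 0.54 by which the AIRmax response exceeded the AIRmin response (95% interval -0.01 to 1.09). Sfrp4 ranged from 8.37 to 9.52 in AIRmax pristane and from 8.80 to 9.31 in AIRmax control footpads, and from 8.30 to 9.20 in AIRmin pristane and from 8.94 to 9.64 in AIRmin control footpads. Its groups overlapped in both lines (-0.24, adjusted p = 0.689, and -0.55, adjusted p = 0.308).

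Sfrp5, known in mice as a gene of white fat, had larger mean differences between lines than between treatments. It was at 6.25, 6.09, 5.78 and 5.50 in AIRmax pristane footpads, against 6.86, 6.22, 6.31 and 6.82 in AIRmin pristane footpads. In controls it was at 6.04, 6.03, 6.30 and 5.56 in AIRmax, against 6.49, 6.66, 6.49 and 6.28 in AIRmin. A single pair of arrays overlapped in each comparison.
The line differences of -0.64 in pristane footpads (standard error 0.21, adjusted p = 0.143 from limma) and -0.50 in control footpads (standard error 0.15, adjusted p = 0.212) did not pass, and the pristane responses were -0.07 in AIRmax and 0.07 in AIRmin. The mean of the 7 measured adipocyte markers, of which 0 were called in either line, ranged from 6.71 to 7.75 in AIRmax pristane and from 7.85 to 8.70 in AIRmax control footpads, and from 7.06 to 8.04 in AIRmin pristane and from 8.01 to 8.70 in AIRmin control footpads. Relative to that list Sfrp5 was 1.04 higher on the log2 scale in AIRmax pristane than in AIRmax control footpads (exact permutation test, two-sided, p = 0.0286, 0.114 adjusted over 16 comparisons), and 0.86 higher in AIRmin pristane than in AIRmin control footpads (p = 0.0857 by the same exact test, 0.229 adjusted).

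**Figure D3:**
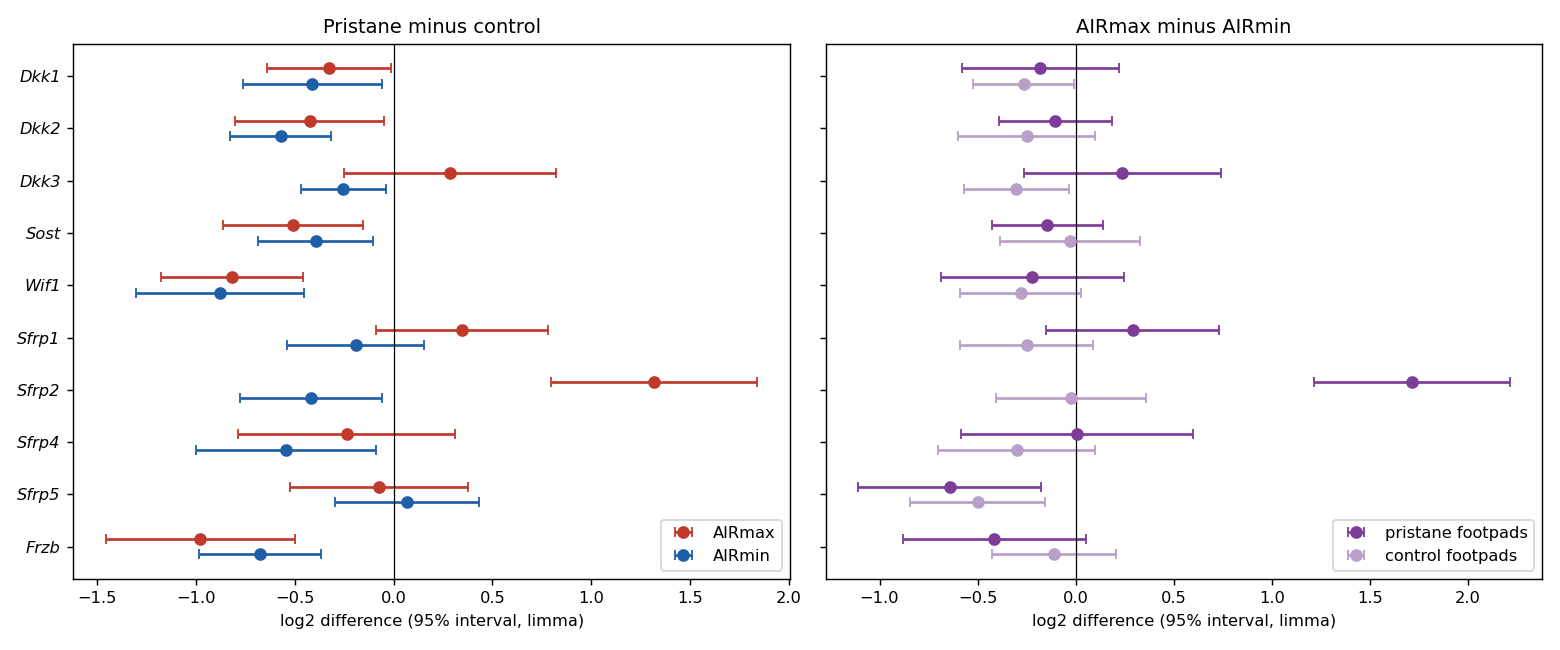
Log2 difference of each antagonist with its 95% interval from limma (horizontal axis). The left panel gives pristane minus control in AIRmax and AIRmin, the right panel AIRmax minus AIRmin in pristane and control footpads. Sfrp2 is the 1 gene whose intervals lie on opposite sides of 0 in the lines (0.80 to 1.84 in AIRmax and -0.78 to -0.06 in AIRmin). The intervals are not adjusted over genes, and neither of these responses passed (adjusted p = 0.0624 in AIRmax and 0.325 in AIRmin from limma).

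Counted over the whole set, limma called 0 of 10 antagonists for the AIRmax response, where 0.281% of all genes passed, and 0 of 10 for the AIRmin response, where 0% did. At an unadjusted p under 0.05 the AIRmax response held 1 higher and 5 lower antagonists, where 14.4% of all genes were under it, and the AIRmin response held 0 higher and 8 lower, where 12.4% were. Pristane and control arrays did not overlap for 1 higher and 3 lower antagonists in AIRmax (5.09% and 4.3% of all genes) and for 0 higher and 3 lower in AIRmin (3.19% and 4.32%). The median log2 difference of the 10 was -0.28 in AIRmax and -0.41 in AIRmin, against 0.03 and 0.02 over all genes. In control footpads limma called 0 of 10 between the lines (0.0802% of all genes), 3 were under an unadjusted p of 0.05 (16.8% of all genes), and all 10 had a lower mean in AIRmax, a sign that turned for Sfrp2, Sost and Frzb when single arrays were left out. The same sign was seen for 56.8% of all genes, and for 17 of 19 Wnt ligands, 17 of 18 receptors, 8 of 9 R-spondins and their receptors, 8 of 8 chondrocyte markers and 7 of 7 keratinocyte markers. It was also seen for 7 of 9 other secreted Wnt inhibitors, 11 of 15 intracellular pathway genes and 10 of 14 beta-catenin targets. Among other markers it was seen for 3 of 3 of osteoblasts, 4 of 5 of tendon and 4 of 5 of endothelium. The like counts were 8 of 12 for skeletal muscle, 5 of 7 for adipocytes and 3 of 4 for sweat glands. Not every list shared this sign. All 9 neutrophil and granulocyte precursor markers had a higher mean in AIRmax (median log2 difference 1.93, 0 called). Osteocyte markers were split 3 and 3, macrophage markers 3 higher and 4 lower, and fibroblast markers 4 higher and 5 lower. Between pristane footpads the antagonists other than Sfrp2, Sfrp5 and Frzb (-0.41, adjusted p = 0.321 from limma) differed by -0.22 to 0.29.

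The rest of the pathway was taken from 6 lists with 84 measured genes. None of these 84 passed for the response within AIRmax or within AIRmin, or between the control footpads of the lines. At an unadjusted p under 0.05, 5 were higher and 6 lower in the AIRmax response (14.4% of all genes in either direction), 7 and 17 in the AIRmin response (12.4%), and 2 and 14 in AIRmax against AIRmin control footpads (16.8%). When the lines were compared after pristane, 2 of 84 passed (1.36% of all genes), both from the list of beta-catenin target genes and both higher in AIRmax. Of the 14 measured genes on that list, 8 had a higher and 6 a lower mean in AIRmax, with a median log2 difference of 0.02. Axin2 (5.68 in AIRmax against 5.92 in AIRmin pristane footpads) and Lef1 (5.57 against 5.90) were among those with a lower mean.
Ccn5, a matricellular protein first described as a gene induced by Wnt1, had 9.69, 9.40, 9.84 and 10.07 in AIRmax pristane footpads, against 7.83 to 8.63 in AIRmin pristane footpads. It differed by 1.58 (standard error 0.20, adjusted p = 0.0139 from limma). The AIRmax controls were at 8.76, 9.04, 8.61 and 8.50, and the AIRmin controls at 8.42, 8.38, 8.28 and 8.41. Its response in AIRmax was 1.02 (adjusted p = 0.0546) and in AIRmin -0.21 (adjusted p = 0.644), and the difference of the responses did not pass (1.23, adjusted p = 0.0546).
Ccn4, of the same family, had 6.76, 6.79, 7.11 and 7.18 in AIRmax pristane footpads, against 6.04, 6.15, 5.89 and 6.12 in AIRmin pristane footpads. It differed by 0.91 (standard error 0.13, adjusted p = 0.0203). Its response was 0.46 in AIRmax (adjusted p = 0.237) and -0.68 in AIRmin (adjusted p = 0.0678), and these differed from each other by 1.13 (standard error 0.20, adjusted p = 0.0242 from limma). With 1 array left out, the number of the 84 called between pristane footpads was 1 without array 111, 112 or 119 and 0 without 117 or 120. The number called for the difference in response was 0 without 105, 111, 112, 113, 115, 116, 117 or 119, 2 without 110 or 118 and 3 without 109.

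In the other 5 lists no gene passed in any of the 5 planned comparisons, and the gene with the smallest p of each is given here. Wnt9b, a ligand, had a response 0.56 more positive in AIRmax than in AIRmin (adjusted p = 0.18 from limma). Fzd8, a Frizzled receptor, was at 6.96 ± 0.09 in AIRmin pristane and 7.38 ± 0.08 in AIRmin control footpads (mean ± SD, n = 4, adjusted p = 0.0999 from limma). Rspo3, an R-spondin that strengthens Wnt signals, was at 5.69 ± 0.25 and 6.14 ± 0.16 in AIRmin pristane and control footpads (adjusted p = 0.217). Igfbp4, a binding protein that can also inhibit Wnt signals, averaged 10.58 ± 0.24 in footpads of AIRmax pristane mice and 9.92 ± 0.33 in those of AIRmin pristane mice (adjusted p = 0.105). Gsk3a, a kinase of the beta-catenin destruction complex, was at 8.31 ± 0.11 in AIRmin pristane and 7.98 ± 0.04 in AIRmin control footpads (adjusted p = 0.164).
In the mean response of both lines, chosen after the values were seen, 6 of the 84 passed, where 2.53% of all genes did. The receptors Fzd4 (-0.64, adjusted p = 0.0194 from limma) and Fzd3 (-0.43, 0.0329) and beta-catenin itself (Ctnnb1, -0.28, 0.0405) fell. Of the transcription factors listed as targets, Twist1 (-0.37, 0.0301) fell, while Fosl1 (0.39, 0.031) and Myc (0.40, 0.0454) rose. Over the 14 measured targets, 7 had a positive and 7 a negative mean response. Between 1 and 11 of the 84 passed when single arrays were left out, with the lowest count without array 105 or 115 and the highest without 108.

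**Figure D4:**
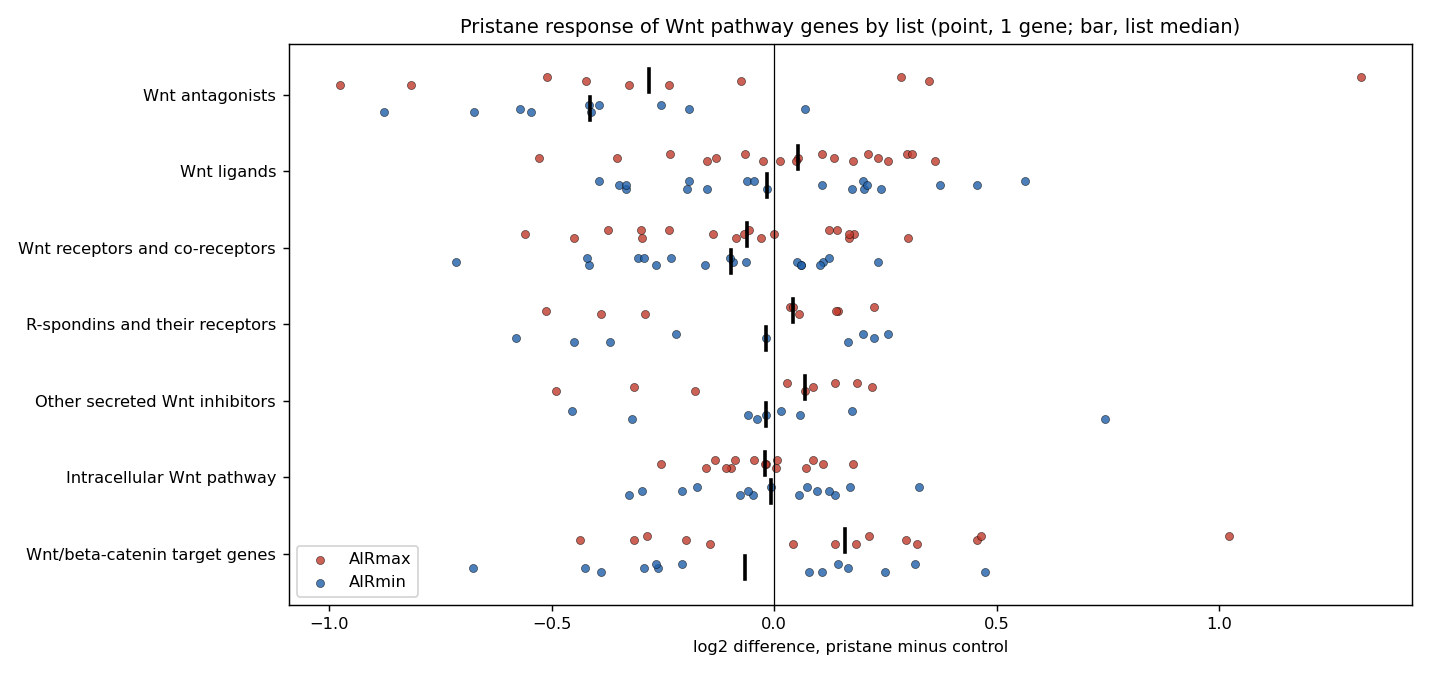
Log2 difference between pristane and control footpads (horizontal axis) of each gene in 7 lists of the Wnt pathway (vertical axis), in AIRmax and AIRmin, with 1 point for a gene and a black bar for the list median. The medians of the antagonists are -0.28 in AIRmax and -0.41 in AIRmin, and those of the ligands 0.05 and -0.02.

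Likeness to other genes was read as Pearson's r of the log2 signal over the 16 arrays, among the 9969 genes with a mean signal above the median. As the best of so many genes, these values are given as a description with no test, and they hold the group differences as well as the spread within groups. Sfrp2 was most like Col12a1 (r = 0.93, and 0.70 for deviations from group means), a collagen of tendon and fascia, followed by Ext1 (0.93 and 0.71), an enzyme of heparan sulfate synthesis, and Anpep (0.91 and 0.74), an aminopeptidase. Without the 2 arrays farthest from the median of Sfrp2 these 3 were at 0.84, 0.84 and 0.79. Wif1 was most like Dcn (0.94 and 0.83), the small proteoglycan decorin, then Kat2b (0.93 and 0.79) and Bmp5 (0.92 and 0.71). Frzb was most like Clu (0.92 and 0.78), Dpep1 (0.91 and 0.63) and Clec3a (0.91 and 0.77), the last a gene of cartilage. Dkk2 was most like Ehd2 (0.92 and 0.90), Cyb5a (0.92 and 0.83) and the co-receptor gene Lrp6 (0.90 and 0.81). Dkk3 was most like Hmcn1 (0.92 and 0.92), Hivep2 (0.84 and 0.83) and Angptl1 (0.83 and 0.93).
For the other 5 antagonists the best r was 0.82 for Dkk1 (Crispld1, then Bmp6 and Dpm1), 0.83 for Sost (Akap12, then Myl4 and Smad6), 0.84 for Sfrp1 (Letm1, then Inhbb and Trpv4), 0.90 for Sfrp4 (Mosmo, then Esyt2 and Nek7) and 0.87 for Sfrp5 (Sync, then Npr3 and Sh2d4a). For deviations from group means the r of the first of these was 0.59 for Dkk1 and 0.47 for Sost. Without the 2 arrays farthest from the median it was 0.68 for Sfrp1.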

How the data were processed

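Footpad RNA of 16 mice was hybridized to Affymetrix Mouse Gene 1.0 ST arrays. The authors deposited a normalized signal for each probe set and array, on the log2 scale. The sample titles name gene-level RMA output and the submitters' processing notes name MAS5, without a version. Of 35556 probe sets, 21789 name 1 gene, 1621 several and 12146 none (the last 2 kinds were left out), and the brightest probe set stood for each of 19938 genes. All 10 members had 1 probe set. Groups were compared with limma 3.58.1 (R 4.3.3, constant prior) on the arrays of the 2 groups, or on all 16 arrays for differences of responses. Adjusted p values are Benjamini-Hochberg over all genes, with a threshold of 0.05. The study's SAM program was not used here. The fit was tested on simulated arrays. The members, lists and tests were chosen with earlier results of these data known. Named were all members, pathway genes past the threshold, else the smallest p of a list, and the 3 genes most like each member. Alternatives were the mean of probe sets, all probe sets, 1 fit of 16 arrays, sex, a trended robust prior, standardized or quantile-normalized arrays, a filter on dim genes, a 2-fold limit and each array left out. The mean response, sex by pristane and levels relative to lists were added after the data were seen. Arrays have no counted depth, and the number of arrays limits the precision. The labels give no scan date. Python 3.11.15 made tables and figures.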

Additional observations from a re-analysis of the deposited data

Results flagged for a closer look

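Sfrp2 responded differently in the lines, by 1.74 on the log2 scale (AIRmax minus AIRmin, adjusted p = 0.0238 from limma on 16 arrays). Dkk3 in AIRmax was higher on both pristane females and lower on both pristane males than on any control array of the same sex, and the female minus male response of 1.01 did not pass (adjusted p = 0.999 from limma). In AIRmax pristane footpads the Sost signal of array 112, at 6.34, lay apart from the other 3 (6.53 to 6.56) by 0.854 of the range, past Dixon's critical value for 4 arrays. It was the only such value among 40 groups of 4 arrays, where chance gives about 1 in 20.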

How the results depend on the processing

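No paired analysis was possible because the array numbers are not shared between groups. Of the alternatives without a left-out array, those below changed a count or a direction. All 16 arrays in 1 fit called 3 antagonists for the AIRmax response in place of 0 (Sfrp2 higher, Frzb and Wif1 lower), 1 of the other pathway genes in place of 0, and 4 in place of 2 between pristane footpads. Standardized and quantile-normalized arrays each gave 1 pathway gene for the AIRmax response, and 2 in place of 1 for the difference in response, as did the trended robust prior and the filter on dim genes. With a 2-fold limit 1 pathway gene was left between pristane footpads, and 0 antagonists and 0 pathway genes in the mean response. Sost missed the threshold there with quantile normalization (-0.41, adjusted p = 0.0648 from limma). With 1 array left out, called antagonists ranged from 0 to 1 for the response in AIRmax, the response in AIRmin, the pristane footpads and the difference in response, stayed at 0 to 0 for control footpads, and ranged from 3 to 5 in the mean response. Called pathway genes ranged from 0 to 2 between pristane footpads, from 0 to 3 for the difference in response, from 1 to 11 in the mean response and were 0 otherwise. Log2 differences that missed the threshold and turned sign with 1 array left out ranged from -0.22 to 0.060 (Sfrp5, AIRmax response), -0.034 to 0.18 (Sfrp5, AIRmin response) and -0.23 to 0.15 (Sfrp4, pristane footpads). In control footpads they ranged from -0.13 to 0.11 (Sfrp2), -0.22 to 0.0079 (Frzb) and -0.15 to 0.10 (Sost). For the difference in response they ranged from -0.0051 to 0.23 (Dkk2), -0.12 to 0.20 (Wif1) and -0.25 to 0.0050 (Sost), and in the mean response from -0.080 to 0.092 (Dkk3) and -0.073 to 0.065 (Sfrp5). Sfrp5 in the mean response also turned to 8.7e-05 with standardized arrays and 0.038 with quantile normalization. The filter on dim genes left out Dkk1 and Frzb.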
